A study of Mus musculus with 4 samples.

Results

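The miR-1, miR-206 and miR-133 arms are the small RNAs cut from the hairpins of a set of muscle miRNA genes. The 10 arms are mmu-miR-1a-3p, mmu-miR-1a-1-5p, mmu-miR-1b-5p, mmu-miR-1b-3p, mmu-miR-206-3p, mmu-miR-206-5p, mmu-miR-133a-3p, mmu-miR-133a-5p, mmu-miR-133b-3p and mmu-miR-133b-5p, written below without the species prefix. They were looked up by name among the 1809 miRNAs listed for all 4 libraries, and all 10 were found and passed the filter on low counts. The libraries hold small RNA of exosomes (small membrane vesicles shed by cells) precipitated from the plasma of C57BL/6 mice, taken 21 days after Lewis lung carcinoma cells, a mouse lung tumour line, were injected into a vein. The WT group was wild type and the KO group was gp49B-/-, lacking an inhibitory receptor of myeloid cells, and both groups carried the tumour, with no tumour-free mice among the libraries used here. Each genotype had 2 libraries numbered pool 1 and pool 2, called here W1 and W2 for wild type and K1 and K2 for knockout, and each combined 3 plasma samples (WT) or 4 (KO). Because the libraries are pools, the spread between single mice is not seen, and the size of the pools differed by genotype. The sources used here do not state age, sex or the design of the gp49B allele. The deleted gene is protein-coding and small RNA does not check it, so the genotype labels were taken as given.

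In background, miR-1 and miR-133 are made together in heart and skeletal muscle from shared precursor transcripts, while miR-206 and miR-133b form a pair of their own in skeletal muscle. miR-1 and miR-206 carry one seed, the stretch at the 5′ end that picks target mRNAs, and miR-133a and miR-133b carry another. miR-1 and miR-206 are known for promoting muscle differentiation and miR-133 for regulating myoblast growth. These miRNAs appear in plasma when muscle is injured or active. The study is known to have reported the miR-1 family on these samples, so the direction of its members here is not independent evidence.

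The mature sequences of 5 of the 10 arms, from RefSeq on GRCm38.p6, are shown because they include miR-206-3p, the arm over 2-fold higher in KO in both pools, and the 5′ arms of miR-206 and miR-1a-1, which resemble each other. Capitals mark the seed, bases 2 to 8 from the 5′ end.
miR-206-3p: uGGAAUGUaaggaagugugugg
miR-206-5p: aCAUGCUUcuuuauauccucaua
miR-1a-1-5p: aCAUACUUcuuuauaugcccaua
miR-133b-3p: uUUGGUCCccuucaaccagcua
miR-133b-5p: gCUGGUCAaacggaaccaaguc
The 5′ arms of miR-1a-1 and miR-206, aligned without gaps from the first base, were identical at 20 of 23 positions. Counted from the 5′ end of miR-1a-1-5p, they differed by A5G, G17C and C19U, the first of which lies in the seed. Of 1560 listed miRNAs with a sequence in the same table, 2 others carried the seed of miR-206-3p, namely miR-6349, with 40 to 102 UMIs per library, and miR-6382, with 8 to 28. The other 5 arms, miR-1a-3p, miR-1b-5p, miR-1b-3p, miR-133a-3p and miR-133a-5p, had no sequence in that table. The count of 2 therefore leaves out miR-1a-3p, which shares the seed of miR-206-3p by the background above.

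Positions are the deposited ones on GRCm38, with genes from GENCODE M21. miR-206-3p lies on chromosome 1 at 20679055 to 20679076, plus strand, within an exon of Gm28653, a long noncoding RNA. miR-133b-5p starts 3720 bases further on, and miR-133b-3p lies at 20682834 to 20682855, also exonic in that RNA. miR-1a-1-5p lies on chromosome 2 at 180389057 to 180389079, plus strand, in Mir1a-1. miR-1a-3p was assigned both to Mir1a-1 (chromosome 2, 180389096 to 180389117) and to Mir1a-2 (chromosome 18, 10785485 to 10785506, intronic in Mir133a-1hg on the minus strand). miR-133a-3p was likewise assigned to a copy on chromosome 2 (180398437 to 180398458, plus strand, in Mir133a-2) and to one on chromosome 18 (10782913 to 10782934, intronic in Mir133a-1hg as well). The counts of these arms therefore sum over 2 loci. miR-1b-5p lies on the plus strand of chromosome 18 at 10785486 to 10785506, in an intron of Mib1, and overlaps miR-1a-3p of the opposite strand by 21 bases.

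Depth was measured in unique molecular identifiers (UMIs), short tags by which copies of one molecule are counted as one. Libraries held 1607218 to 3645842 UMIs over all listed features. There were 5.29 reads per UMI in W1, 5.70 in K1, 1.69 in W2 and 2.11 in K2. The middle miRNA of the 1809 had 31 to 47 UMIs per library, which serves below as the level of an ordinary listed miRNA. Nothing in the labels says that the mice of the pools came from separate cohorts, so p-values measure only the spread between these libraries. Intervals on counts are exact 95% intervals that cover counting error only.

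The first question was how much of the vesicle miRNA these arms made up. Together they took 0.462% of miRNA UMIs in W1 (interval 0.451 to 0.472%) and 0.443% in W2 (0.435 to 0.450%). In K1 they took 4.07% (4.04 to 4.10%) and in K2 0.710% (0.701 to 0.719%). By this share the WT libraries lay close together, both KO libraries lay above them, and K1 stood apart from the other 3. The closeness of W1 and W2 did not hold for the most abundant arms with TMM scaling, described with the main comparison below. On that scale the levels in W1 and W2 were 1484 and 2906 for miR-1a-3p. They were 488 and 2964 for miR-206-3p, and 360 and 1516 for miR-133a-3p. The mean share was 2.39% ± 2.37 for KO (SD, n = 2) and 0.452% ± 0.0136 for WT (SD, n = 2), so the KO spread was as large as the KO mean. The difference of means was 1.94 percentage points, 0.258 without K1 and 3.61 without K2. Leaving the abundant miR-16-5p and miR-122-5p out of the denominator made it 3.00.

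The sum rested on 3 arms, miR-1a-3p, miR-206-3p and miR-133a-3p, which made up 85.6% to 96.6% of it. Their make-up differed between libraries. In W1 miR-1a-3p gave 54.5% of the summed UMIs and miR-206-3p 17.9%. In W2 these were 37.7% and 38.4%, in K1 43.6% and 37.6%, and in K2 27.1% and 58.0%. By UMI count miR-1a-3p ranked 45 and 40 among all listed miRNAs in W1 and W2, and 10 and 40 in K1 and K2. The rank of miR-206-3p, a skeletal muscle miRNA, was 68 and 39 in W1 and W2, and 13 and 29 in K1 and K2.

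**Figure D1:**
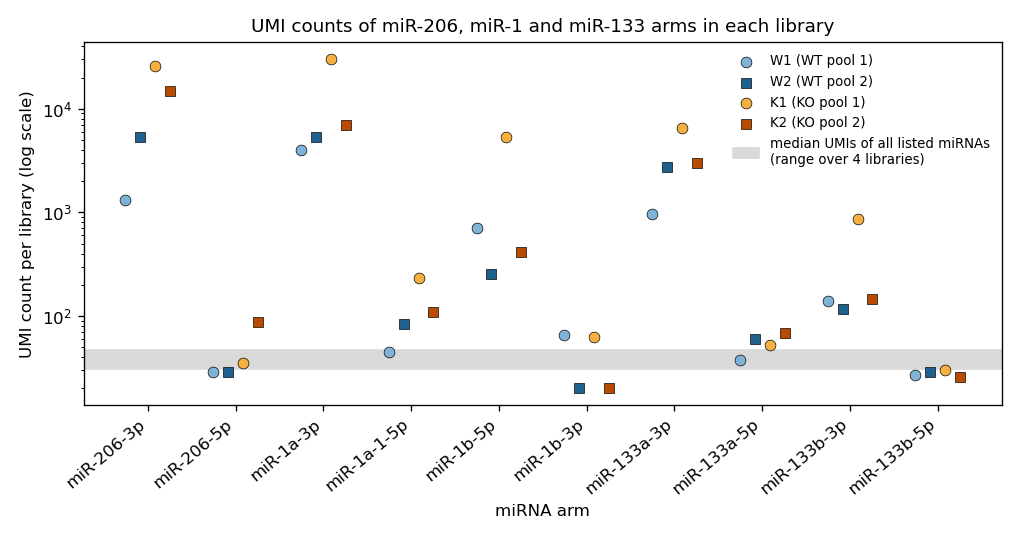
Each point is the UMI count (log axis) of 1 arm in 1 of the 4 libraries, and the grey band is the range of the median count of all listed miRNAs, 31 to 47. The 3p arms of miR-206, miR-1a and miR-133a sit far above the band, while miR-1b-3p, miR-133a-5p and miR-133b-5p sit in or near it.

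The main comparison asked whether the arms differ between gp49B KO and WT. The 1 arm at least 2-fold higher in KO in both pools was miR-206-3p, with 1305 UMIs in W1, 5392 in W2, 26116 in K1 and 14940 in K2. Scaled with TMM factors to UMIs per 1000000 (CPM), its level was 488 in W1, 2964 in W2, 10167 in K1 and 6018 in K2. Both KO libraries lay above both WT libraries, with W1 the lowest. KO exceeded WT 20.8-fold in pool 1 (19.7 to 22.1) and 2.03-fold in pool 2 (1.97 to 2.10). miR-206-3p was the 1 arm of 10 whose KO and WT libraries did not overlap in TMM-scaled CPM, a separation that 9.52% of all miRNAs tested showed in the same direction. The log2 fold change was 2.23 (SE 0.96), with an unadjusted p of 0.0416 and an adjusted p of 0.99995 (edgeR's quasi-likelihood test, Benjamini-Hochberg over 1797 miRNAs), so the difference did not pass. Without W1 the estimate was 1.47 and without W2 4.05.

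Across the 10 arms, edgeR called 0 at an adjusted p under 0.05, as it did over all miRNAs tested (0.00%). At an unadjusted p under 0.05 there were 3 arms, miR-206-3p, miR-1b-5p and miR-133b-3p, and 32 miRNAs in all. DESeq2 and limma-voom also called 0, with 4 and 1 arms at an unadjusted p under 0.05, among 28 and 27 of 1797 miRNAs. Estimates were above 0 in 8 of the 10 arms, with a median log2 fold change of 1.06 against -0.03 over all miRNAs tested.

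The 2 pool numbers were then taken one at a time. In pool 1, 6 of the 10 arms were at least 2-fold higher in KO with TMM scaling, against 2.64% of 1780 miRNAs counted above 0 in all libraries. These were miR-206-3p, miR-1a-3p, miR-1a-1-5p, miR-1b-5p, miR-133a-3p and miR-133b-3p. In pool 2, 2 of the 10 were at least 2-fold higher, the arms of miR-206, against 4.10% of those miRNAs. One arm, miR-206-3p, passed 2-fold in each pool number, as did 0.112% of miRNAs. The median ratio of the 10 arms was 5.87 in pool 1 and 0.942 in pool 2, where the median of all miRNAs was 0.994 and 0.989. With 1 library of each genotype per pool number these ratios have no replicate check, and the difference between the pools was not tested.

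**Figure D2:**
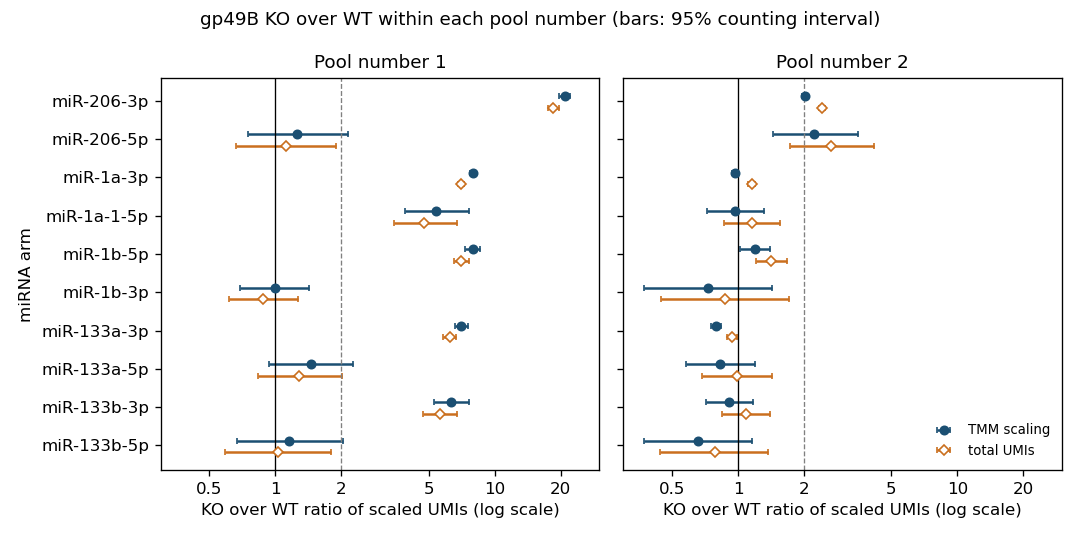
Points are KO over WT ratios of scaled UMI counts (log axis) for each arm in pool 1 (left) and pool 2 (right), with TMM scaling or scaling on total miRNA UMIs, bars are 95% counting intervals, the solid line marks 1 and the dashed line 2. In pool 1 miR-206-3p, miR-1a-3p, miR-1a-1-5p, miR-1b-5p, miR-133a-3p and miR-133b-3p lie between 5.39 and 20.8 with TMM. In pool 2 the arms of miR-206 lie above 2.

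Of the 4 miR-1 arms, miR-1a-3p, miR-1a-1-5p and miR-1b-5p were over 5-fold higher in KO in pool 1 and differed less in pool 2, while miR-1b-3p had a ratio near 1 in pool 1. miR-1a-3p, the abundant strand of the miR-1 hairpins of heart and skeletal muscle, had 3972 and 5287 UMIs in W1 and W2, and 30290 and 6989 in K1 and K2. K1 alone was high, since the other 3 libraries lay between 1484 and 2906 CPM and K2 lay inside the WT range. KO exceeded WT 7.94-fold in pool 1 (7.69 to 8.21), and in pool 2 the ratio was 0.969 (0.935 to 1.00). The log2 fold change was 1.73 (SE 0.90), with an edgeR adjusted p of 0.99995, and with 1 library left out it ranged from 0.38 (without K1) to 2.42 (without K2). miR-1a-1-5p, the other strand of the chromosome 2 hairpin, had 45 and 83 UMIs in W1 and W2 and 233 and 110 in K1 and K2, with ratios of 5.39 (3.91 to 7.60) and 0.971 (0.724 to 1.31). miR-1b-5p had 701 and 255 UMIs in W1 and W2 and 5339 and 415 in K1 and K2, with ratios of 7.93 (7.33 to 8.60) and 1.19 (1.02 to 1.40). Its log2 fold change of 2.48 (SE 0.99) became -0.25 without K1 and 3.37 without K2. miR-1b-3p, with 65 and 20 UMIs in W1 and W2 and 62 and 20 in K1 and K2, stayed near the level of an ordinary listed miRNA, and its ratios of 0.994 (0.690 to 1.43) and 0.733 (0.374 to 1.44) have intervals that include 1.

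Of the 4 miR-133 arms, the 3p arms were highest in K1, as miR-1a-3p was. miR-133a-3p, the abundant strand of the hairpins transcribed with miR-1, had 963 and 2758 UMIs in W1 and W2, and 6490 and 2974 in K1 and K2. K1 was again the highest library at 2527 CPM, while K2 at 1198 CPM lay between the WT libraries at 360 and 1516. KO over WT it stood at 7.02 in pool 1 (6.56 to 7.52) and 0.790 in pool 2 (0.750 to 0.833), and the log2 fold change was 0.99 (SE 0.81). With 1 library left out it was 0.32 without W1, 0.37 without K1, 1.43 without K2 and 2.37 without W2. miR-133b-3p, from the chromosome 1 hairpin next to miR-206, had 141 and 117 UMIs in W1 and W2 and 858 and 146 in K1 and K2. Its ratios were 6.34 (5.30 to 7.63) and 0.914 (0.712 to 1.18), and its log2 fold change was 1.75 (SE 0.73), or 0.03 without K1 and 2.51 without K2. miR-133a-5p had 38 to 68 UMIs and miR-133b-5p 26 to 30, and the intervals of their ratios include 1 in both pools.

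The 5p arm of miR-206 had 29 UMIs in each WT library, 35 in K1 and 88 in K2. It was thus highest in the KO library in which its 3p partner was lower. KO over WT it stood at 1.26 in pool 1 (0.747 to 2.13) and 2.22 in pool 2 (1.45 to 3.51), and the log2 fold change was 0.88 (SE 0.51), or 0.04 without K2 and 1.43 without K1. The count in K1 lay below that library's median miRNA at 43 UMIs, and the count in K2 above its median of 42.

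TMM and total scaling differ here, since the median KO over WT ratio of all miRNAs on total UMIs was 0.880 in pool 1 and 1.18 in pool 2. On total UMIs miR-206-3p had ratios of 18.5 and 2.42, miR-1a-3p 7.04 and 1.15 (1.11 to 1.20), and miR-133a-3p 6.22 and 0.942 (0.894 to 0.992). The direction of miR-1a-3p in pool 2 therefore depended on the scaling, and it lay at about the median of all miRNAs in either. Arms higher in KO in pool 2 numbered 3 of 10 with TMM, against 48.0% of miRNAs, and 6 of 10 on total UMIs, against 69.0%. In pool 1 they numbered 9 of 10 with either, against 49.3% and 34.6%. On total UMIs edgeR gave 5 miRNAs an unadjusted p under 0.05, and all 5 were members of this set: miR-206-3p, miR-1a-3p, miR-1b-5p, miR-133a-3p and miR-133b-3p. The adjusted p of miR-206-3p was then 0.0548 in edgeR, with an estimate of 2.94 on the log2 scale (SE 0.70), and 0 miRNAs passed. On total UMIs 6 arms again passed 2-fold in favour of KO in pool 1 (1.35% of miRNAs) and 2 in pool 2 (7.25%). Libraries of the genotypes did not overlap on that scale in 3 of 10 arms, miR-206-3p, miR-206-5p and miR-1a-1-5p, against 3.28% of miRNAs. For miR-206-5p and miR-1a-1-5p the counting intervals did overlap. miR-206-5p took 0.00205% (0.00143 to 0.00285%) in K1 and 0.00184% (0.00123 to 0.00264%) in W1. miR-1a-1-5p took 0.00303% (0.00249 to 0.00365%) in K2 and 0.00285% (0.00208 to 0.00382%) in W1.

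Ratios between arms of the same library do not depend on scaling between libraries. The ratio of miR-206-3p to its seed relative miR-1a-3p was 0.329 (0.308 to 0.350) in W1 and 0.862 (0.848 to 0.877) in K1. It was 1.02 (0.982 to 1.06) in W2 and 2.14 (2.08 to 2.20) in K2. Within each pool number the ratio was higher in KO, 2.62-fold in pool 1 and 2.10-fold in pool 2. Pool 2 also exceeded pool 1, 3.10-fold in WT and 2.48-fold in KO, so K1 lay below W2 and the genotypes overlapped. Measured against its neighbour miR-133b-3p, miR-206-3p was again higher in KO within each pool number, 3.29-fold in pool 1 and 2.22-fold in pool 2. Pool 2 exceeded pool 1 here too, 4.98-fold in WT and 3.36-fold in KO, and K1 at 30.4 lay below W2 at 46.1.

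The abundant strands of the miR-1 and miR-133a hairpins kept closer together. miR-1a-3p over miR-133a-3p was 4.12 in W1 and 4.67 in K1, and 1.92 in W2 and 2.35 in K2. KO over WT, the ratio differed 1.13-fold in pool 1 and 1.23-fold in pool 2, and pool 1 over pool 2 it differed 2.15-fold in WT and 1.99-fold in KO. The difference between pool numbers was thus the larger one for this pair.

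**Figure D3:**
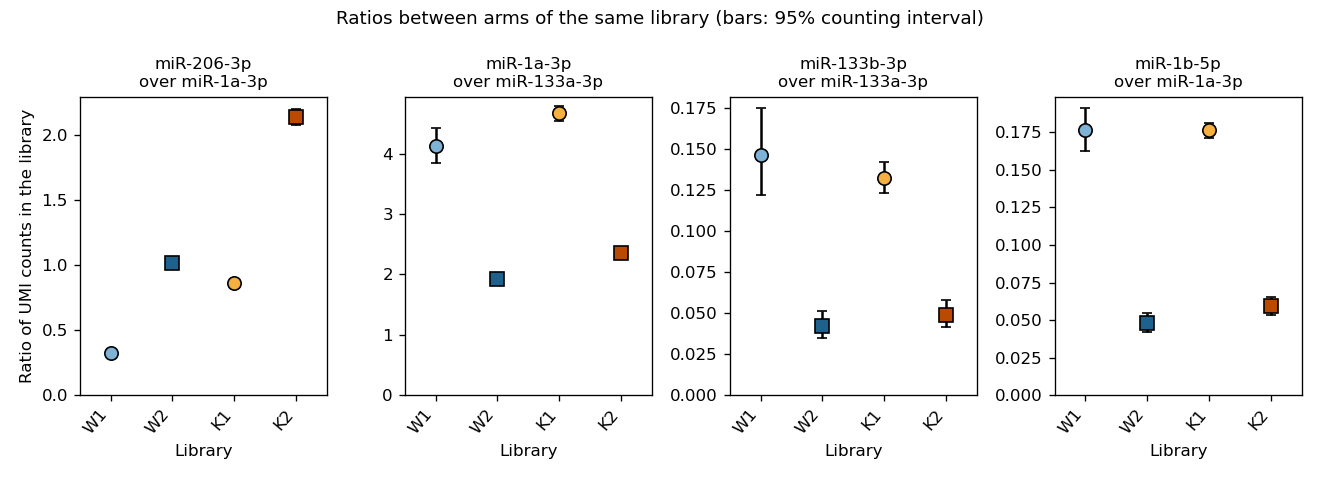
Each panel plots the ratio of the UMI counts of 2 arms in each of the 4 libraries, with 95% counting intervals. miR-206-3p over miR-1a-3p is higher in KO within each pool number (0.329 and 0.862, 1.02 and 2.14) and higher in pool 2 within each genotype, and the other 3 ratios are higher in pool 1 within each genotype.

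A pair of arms followed a more abundant relative closely. miR-133b-3p, whose mature sequence is nearly that of miR-133a-3p, was counted at 14.6% of miR-133a-3p in W1 and 13.2% in K1, and at 4.24% and 4.91% in W2 and K2. miR-1b-5p, on the strand opposite miR-1a-3p, was counted at 17.6% of miR-1a-3p in both pool 1 libraries, and at 4.82% and 5.94% in W2 and K2. Pool 1 over pool 2 these shares differed 2.69-fold to 3.66-fold, and KO over WT within a pool number at most 1.23-fold, a genotype difference far smaller than that between pools. In deposited reads, which count every copy of a molecule, the same shares were 6.26%, 4.59%, 3.43% and 3.90% for miR-133b-3p in W1, K1, W2 and K2. For miR-1b-5p they were 4.60%, 3.66%, 3.14% and 3.43%, so the gap between the pool numbers was smaller in reads than in UMIs.

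Reads per UMI set these arms apart from the others. miR-1b-5p had 1.60 reads per UMI in W1, 1.35 in K1, 1.10 in W2 and 1.26 in K2, and 2 to 7 of the 352 miRNAs with at least 100 UMIs on average had fewer in each library. miR-133b-3p had 2.23 in W1, 1.998 in K1, 1.32 in W2 and 1.64 in K2, with 11 to 14 of the 352 below it. The medians of the 352 were 5.82 in W1, 6.16 in K1, 1.71 in W2 and 2.18 in K2. miR-206-3p, at 5.94, 6.36, 1.72 and 2.17, and miR-1a-3p, at 6.12, 6.53, 1.69 and 2.17, lay near those medians in value. By rank, 264, 290, 134 and 165 of the 352 were lower than miR-1a-3p in W1, K1, W2 and K2. miR-1a-1-5p was low in 3 libraries, with 3.18 in W1, 1.87 in K1 and 1.78 in K2, where 10 to 21 of the 352 were lower, but not in W2 (1.81, with 308 lower), and its pool 1 ratio of 5.39 in UMIs was 3.03 in reads. Counts of miR-133b-3p and miR-1b-5p are uncertain to the extent that reads of miR-133a-3p and miR-1a-3p can be assigned to them, which the deposited tables do not show.

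**Figure D4:**
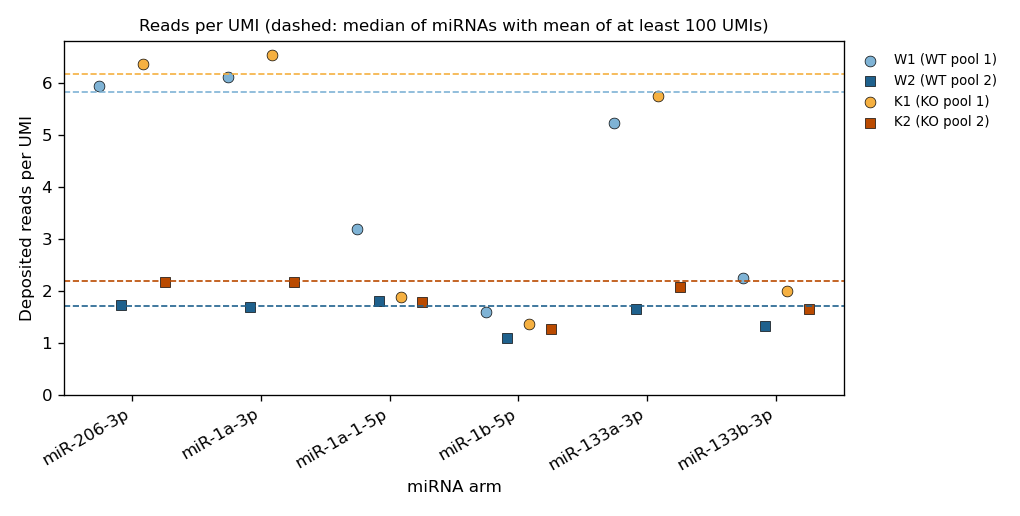
Points are deposited reads per UMI of the 6 arms with at least 100 UMIs on average in each library, and dashed lines are the medians of the 352 miRNAs above that limit. miR-1b-5p and miR-133b-3p lie below the median of their library in all 4, whereas miR-206-3p and miR-1a-3p lie near it.

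The arms of a hairpin did not keep 1 ratio. miR-206-3p exceeded miR-206-5p 45.0-fold (31.2 to 67.5) in W1, 186-fold in W2, 746-fold (536 to 1071) in K1 and 170-fold in K2. In pool 2 the KO over WT change of that ratio was 0.913, with a wide interval that includes 1 (0.599 to 1.39). It rests on 29 UMIs of miR-206-5p in W2 and 88 in K2. In pool 1 the change was 16.6 (10.1 to 27.2). miR-133a-3p exceeded miR-133a-5p 25.3-fold in W1, 46.0-fold in W2, 122-fold in K1 and 43.7-fold in K2. miR-1a-3p over miR-1a-1-5p, whose numerator sums 2 hairpins and its denominator 1, was 88.3, 63.7, 130.0 and 63.5 in the same order. In reads it spread further, at 170, 59.5, 454 and 77.4, where miR-133a-3p over miR-133a-5p was 22.4, 45.2, 128 and 38.2. The passenger arms of miR-206, miR-133a and miR-133b had counts near those of the median miRNA, apart from miR-206-5p in K2 and miR-133a-5p in pool 2. miR-133a-5p had 60 UMIs in W2 and 68 in K2, where the median miRNA had 31 and 42.

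Other miRNAs of striated muscle were taken from a list of 6 arms, those of the heart miRNAs miR-208a and miR-208b and of miR-499, which lie in myosin genes. In all libraries the 6 had between 18 and 68 UMIs, near the median miRNA, and 0 of 6 were called by edgeR. miR-208a-3p had 63 and 30 UMIs in W1 and W2, and 53 and 27 in K1 and K2. miR-499-5p had 56 and 27 in W1 and W2 and 68 and 39 in K1 and K2, with ratios of 1.26 (0.875 to 1.84) and 1.06 (0.632 to 1.80). The list took 0.0169% and 0.00470% of UMIs in W1 and W2 and 0.0166% and 0.00529% in K1 and K2, so it showed no excess in K1, the library in which the miR-1, miR-206 and miR-133 arms were 8.80-fold above W1.

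Markers of other sources moved with the pools as well. The 4 myeloid arms (miR-223 and miR-142a) took 2.21% and 1.16% in W1 and W2, and 4.64% and 1.14% in K1 and K2. Shares of the 2 platelet and endothelial arms (miR-126a) were 0.587% and 0.339% in W1 and W2 and 0.922% and 0.339% in K1 and K2. The 4 smooth muscle arms (miR-143 and miR-145a) took 0.565% and 0.516% in W1 and W2 and 0.865% and 0.321% in K1 and K2. These 3 lists were thus highest in K1 as sums, by less than the muscle arms. The K1 sum rested mainly on miR-223-3p for the myeloid list (66021 of 79245 UMIs). For the smooth muscle list it rested mainly on miR-143-3p (13987 of 14787). The share of miR-145a-5p was highest in W2, not in K1, with 1344 UMIs in W2 and 620 in K1. The 6 liver arms (miR-122, miR-192, miR-194 and miR-802), at 11.4% and 27.3% in W1 and W2 and 7.49% and 20.3% in K1 and K2, and the 7 red blood cell arms (miR-451a, miR-144, miR-486a and miR-486b), at 11.4% and 18.8% in W1 and W2 and 8.56% and 18.2% in K1 and K2, were lowest in K1 as sums, and the miR-486 arms are also made in muscle. In K1 these sums rested mainly on miR-122-5p (120598 of 128000 UMIs) and miR-486b-5p (108603 of 146338). By share of miRNA UMIs, miR-122-3p, miR-194-5p, the miR-802 arms, miR-144-3p and the 3p arms of miR-486a and miR-486b were not lowest in K1. No marker of these lists was at 0 in any library, and their part in the muscle values was not tested. In such libraries more vesicles from muscle and more of a miRNA per vesicle cannot be told apart.

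The miRNAs with the most similar pattern over the 4 libraries were sought among 346 others with at least 100 UMIs on average, by the root mean square distance between centred log2 CPM values. For miR-1a-3p the nearest was miR-223-3p of myeloid cells (distance 0.56), with 24661 and 22310 UMIs in W1 and W2, and 66021 and 21839 in K1 and K2, then miR-10b-5p (0.61), miR-203-3p (0.67), miR-379-5p (0.71) and miR-125a-5p (0.72). Within the set miR-133b-3p (0.30), miR-1a-1-5p (0.43) and miR-133a-3p (0.54) were nearer than these. The members miR-1b-5p (0.86) and miR-206-3p (0.96) were farther off than miR-125a-5p. For miR-206-3p the nearest others were miR-146b-5p (1.03), miR-199a-5p (1.07), miR-10b-5p (1.09), miR-379-5p (1.13) and miR-205-5p (1.15), all farther off than miR-133a-3p at 0.76. The members miR-1a-1-5p (0.88) and miR-1a-3p (0.96) were also nearer than these, while miR-133b-3p (1.25) and miR-1b-5p (1.69) were farther off than miR-205-5p. Since 4 libraries hold few degrees of freedom, these distances are a description only.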

How the data were processed

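Per the labels' protocols, plasma exosomes were precipitated with ExoQuick and the QIAseq miRNA kit added UMIs while preparing libraries. The deposited files give UMI counts and read counts per mature miRNA, whole and not normalized, and a log2 value by the authors, which equals log2 of the UMI count plus a constant per library (-0.0276, 0.0296, 0.215 and -0.209 in W1, K1, W2 and K2) with no stated scaling. FastQC 0.11.9 and GRCm38 are named per the submitters' processing notes; aligner and counter: not given in the sources used here. Column names of the W2 and K2 tables depart from the labels, but their counts equal those of the labelled libraries in the joint table. The smallest count above 0 was 10 in pool 1 libraries, 1 in W2 and 2 in K2. piRNAs and miRNAs of 1 pool number only were left out.

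UMI counts of 1809 miRNAs were filtered by edgeR's filterByExpr (1797 left), scaled by TMM and compared with edgeR 4.0.16 (R 4.3.3), with its two-sided quasi-likelihood test, calls being made at a Benjamini-Hochberg adjusted p under 0.05 and without a pool term. Alternatives used limma 3.58.1, DESeq2 1.42.0, other scalings and filters, reads, the authors' values and libraries left out. Named were the 10 members, the other muscle list and the 5 nearest miRNAs of miR-206-3p and miR-1a-3p, with marker lists from textbook knowledge; miR-6349 and miR-6382 were named after their values were seen. Members and lists were chosen with earlier results of these data known. Intervals of ratios were exact (SciPy 1.17.1), and those of KO over WT changes of a ratio were computed on the log scale.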

Additional observations from a re-analysis of the deposited data

Results flagged for a closer look

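miR-133a-3p was singled out because KO and WT differed in opposite directions in the pool numbers, beyond counting error in each. With TMM scaling its KO over WT ratio was 7.02 in pool 1 and 0.790 in pool 2, and on total UMIs it was 6.22 and 0.942. The difference between the pools was not tested, since each has 1 library per genotype.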

How the results depend on the processing

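The labels give WT and KO libraries the same pool numbers but do not say that a number marks a shared batch; libraries of one number deviated from their genotype means with a correlation of 0.527 across 1797 miRNAs. With pool number as a replicate block edgeR called 0 miRNAs and 0 arms, with 78 miRNAs at an unadjusted p under 0.05 and an adjusted p of 0.898 for miR-206-3p. With the block and only the 352 miRNAs of at least 100 UMIs on average, edgeR called 10 miRNAs and 5 of the 6 arms above that limit, all 5 higher in KO: miR-206-3p (log2 fold change 2.61, adjusted p 3.44e-07), miR-1b-5p (0.00863), miR-133b-3p (0.0171), miR-1a-3p (0.0252) and miR-1a-1-5p (0.0299), but not miR-133a-3p (0.161). miR-1a-1-5p reached that limit only through KO, with 45 and 83 UMIs in W1 and W2 and 233 and 110 in K1 and K2, so its call is no support. That fit has 1 residual degree of freedom, and without the block the same limit called 0. With 1 library left out the number of miRNAs called ranged from 0 to 3 (2 without W2, 3 without K2) and that of arms was 0; where a genotype kept 1 library, it was assumed to vary like the other genotype. The other settings called 0.

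Log2 fold changes of miR-206-3p (1.47 to 4.05), miR-1a-3p, miR-1a-1-5p, miR-133a-3p, miR-133b-3p and miR-206-5p kept their sign in each setting run. With 1 library left out, miR-1b-5p ranged from -0.25 (without K1) to 3.37, miR-1b-3p from -1.14 to 0.57, miR-133a-5p from -0.43 to 0.76 and miR-133b-5p from -0.50 to 0.14, and the cause of these turns was not tested. Counts of arms at least 2-fold higher in KO within a pool number were the same under each other scaling or value run. The difference in summed share was 2.01 percentage points in reads and 3.00 with miR-16-5p and miR-122-5p out of the denominator, and ranged from 0.258 (without K1) to 3.61 (without K2). In reads, the KO over WT change in pool 1 was 2.67 for miR-1a-3p over miR-1a-1-5p (1.47 in UMIs), 0.794 for miR-1b-5p over miR-1a-3p (0.999) and 0.734 for miR-133b-3p over miR-133a-3p (0.903). Depth limits miR-206-5p, miR-133a-5p, miR-133b-5p and miR-1b-3p, whose counts of 20 to 88 give wide intervals.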
